A study of Mus musculus with 3 samples.

Results

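The 8 genes described here are 7 that encode enzymes of cholesterol synthesis (Hmgcs1, Idi1, Fdps, Fdft1, Sqle, Lss and Cyp51) and Srebf2, which encodes the transcription factor SREBP2, among 56980 genes listed for mouse bone marrow nucleated cells. They were taken by gene symbol and 8 of 8 were found. None of them encodes a cholesterol uptake protein, so uptake is described from a separate list. Each of 3 groups is 1 droplet single-cell library pooled from 3 male C57BL/6 mice and prepared at 14 days post irradiation: mice without irradiation (Control), mice given 6.0 Gy of Cobalt-60 gamma rays with the solvent of soybean oil and DMSO (IR), and mice given 6.0 Gy with cannabidiol (CBD) at 50 mg/kg by intraperitoneal injections before and after irradiation (IR+CBD). Lin-Kit+, Lin-Kit- and Lin+ femur cells were sorted and remixed before loading, which fixes part of the cell mix, and whether the Control mice received solvent is not given in the sources used here. With 1 library per group no test between groups was possible, so levels are given as CPM (UMIs of the gene per 1000000 UMIs in the summed cells) with 95% intervals that cover counting error only, and neither differences between mice nor between libraries enter them.

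Cholesterol is built from acetyl-CoA through mevalonate, farnesyl pyrophosphate, squalene and lanosterol. When sterols are scarce, SREBP2 is carried from the endoplasmic reticulum to the Golgi, cut by proteases and released to the nucleus, where it turns on the genes of this pathway and its own gene. Dividing blood cells need sterols for new membrane, and the same pathway supplies the prenyl groups that anchor small GTPases.

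The genes lie on 6 chromosomes in the GRCm38 annotation: Hmgcs1 on chromosome 13 from 119690379 to 119708260, Idi1 on chromosome 13 from 8885501 to 8892451, Fdps on chromosome 3 from 89093588 to 89101959, Fdft1 on chromosome 14 from 63145150 to 63179578, Sqle on chromosome 15 from 59315077 to 59331192, Lss on chromosome 10 from 76531588 to 76557138, Cyp51 on chromosome 5 from 4081145 to 4104746 and Srebf2 on chromosome 15 from 82147181 to 82205379. Fdps and Srebf2 each overlap 2 annotated genes on the same strand, whose reads may not be separable from theirs, and Hmgcs1, Idi1, Fdft1, Lss and Cyp51 each overlap 1 on the opposite strand (Ctsb for Fdft1, Akap9 for Cyp51). RefSeq promoter windows, which run from 250 bases before to 50 bases after the start site in GRCm38.p6, were held for 5 of the 8 genes. They are printed for Hmgcs1 (chr13:119690101-119690400, plus strand), Srebf2 (chr15:82147019-82147318, plus strand) and Cyp51 (chr5:4104648-4104947, minus strand), since these genes were among those with lower levels in IR. Capitals mark the sterol regulatory element (TCACNCCAC, or its shorter form TCACNCCA), the NF-Y box (CCAAT) and the Sp1 box (GGGCGG), searched on both strands. In these windows the 3 kinds did not overlap, and the shorter sterol element lies within the longer in Hmgcs1.
Hmgcs1: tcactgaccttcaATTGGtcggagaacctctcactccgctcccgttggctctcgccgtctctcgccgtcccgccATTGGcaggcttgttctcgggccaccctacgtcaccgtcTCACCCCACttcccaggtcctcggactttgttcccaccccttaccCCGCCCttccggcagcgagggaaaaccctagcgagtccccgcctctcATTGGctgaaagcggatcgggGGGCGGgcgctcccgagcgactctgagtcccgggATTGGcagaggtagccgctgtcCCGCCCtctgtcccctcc
Srebf2: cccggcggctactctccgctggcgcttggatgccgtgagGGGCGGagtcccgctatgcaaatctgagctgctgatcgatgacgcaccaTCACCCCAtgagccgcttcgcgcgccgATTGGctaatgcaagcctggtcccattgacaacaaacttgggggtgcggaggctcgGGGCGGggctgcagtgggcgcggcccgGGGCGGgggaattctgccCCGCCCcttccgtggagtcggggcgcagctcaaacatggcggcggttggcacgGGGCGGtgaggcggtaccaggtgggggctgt
Cyp51: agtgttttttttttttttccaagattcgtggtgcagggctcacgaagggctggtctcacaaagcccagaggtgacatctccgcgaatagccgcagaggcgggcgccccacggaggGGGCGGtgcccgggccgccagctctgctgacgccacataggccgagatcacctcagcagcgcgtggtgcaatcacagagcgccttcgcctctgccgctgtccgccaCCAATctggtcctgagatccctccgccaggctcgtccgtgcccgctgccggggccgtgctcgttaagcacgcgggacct
The longer sterol element was found in 1 of the 5 windows, that of Hmgcs1, where it began 137 bases before the start site, and in 1.24% of all 32851 promoter windows. The shorter form, searched after the data had been seen, was found in 2 of the 5 windows, at the same place in Hmgcs1 and 162 bases before the start site of Srebf2, and in 4.36% of all windows. The NF-Y box was found in 5 of 5 windows and in 37.4% of all windows, and the Sp1 box in 5 of 5 and in 35.7%. These matches describe letters in a window and not bound sites.

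Cells were kept at 200 or more genes and at most 5% mitochondrial UMIs, which gave 10674 Control, 10345 IR and 10273 IR+CBD cells with 194839224, 202361682 and 173466089 UMIs. The libraries shared 35 to 51 cell barcodes in pairs and 0 across all 3. Cells were also grouped by raw UMIs of lineage genes into gates named for those genes: Mpo (at least 5 UMIs, myeloid progenitors), Klf1 (at least 2, erythroid cells), Cd79a (at least 2, B lineage), Retnlg (at least 5, neutrophils), Siglech (at least 3, plasmacytoid dendritic cells) and Cd34 with Adgrl4 (at least 1 of each, meant for stem and early progenitor cells). A cell could pass several gates, and 2055 to 2470 cells per library did. Most cells of the Cd34 Adgrl4 gate also passed the Mpo gate (in Control 2149 of 3116 cells, in IR 1706 of 1952, in IR+CBD 1643 of 1970). These gates are therefore not independent, and by the Mpo gate most of these cells were myeloid progenitors. Endothelial cells also express Adgrl4. Cdh5, their defining cadherin, stood at 0.0898 to 0.158 CPM in the Cd34 Adgrl4 gate. Other endothelial markers are not given here, so the absence of these cells is not claimed. The mix of cells differed between libraries. The Klf1 gate took 5.49%, 14.0% and 11.5% of the cells in Control, IR and IR+CBD, while the Siglech gate held 273, 46 and 79 cells and the Cd34 Adgrl4 gate 29.2%, 18.9% and 19.2%.

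In all cells, 4 of the 8 genes (Cyp51, Srebf2, Hmgcs1 and Fdps) were lower in IR than in Control by the limit used here, a ratio of 0.8 or less, and none was higher by its inverse, a ratio at least 25% above 1. Both are called the fold limit in what follows. At a fixed mix of cells, described after the levels, this count was 1 of 8. Among 20760 genes with a mean of at least 20 UMIs per library, 21.5% were as much lower and 11.3% as much higher with the mix as loaded. All 8 genes passed that minimum. The median log2 ratio of IR to Control was -0.25 over the 8 genes and -0.05 over all genes tested. Between IR+CBD and IR, only Hmgcs1 of the 8 was higher past the fold limit and none was lower past it, where the shares of all genes were 9.93% and 8.72%, and the median log2 ratio was 0.07 against 0.00 over all genes. Between IR+CBD and Control, Fdps was lower past the fold limit and none was higher past it, where the shares of all genes were 18.6% and 10.2%, and the median log2 ratio was -0.12 against -0.05. The 3 comparisons share libraries and are not independent of each other.

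Hmgcs1, the cytosolic synthase that makes HMG-CoA at the head of the pathway, stood at 25.6 CPM in Control, 19.4 CPM in IR and 27.3 CPM in IR+CBD. Only the IR library was low. IR over Control gave a ratio of 0.756 (95% interval 0.724 to 0.788), and IR+CBD over IR gave 1.41 (1.35 to 1.47). The level in IR+CBD was 1.07 times that in Control (1.03 to 1.11). None of the other 7 genes had IR+CBD over IR ratios beyond 1.18 in all cells.

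Srebf2 stood at 61.6 CPM in Control, 45.3 CPM in IR and 51.7 CPM in IR+CBD. The Control library was highest and IR+CBD lay between. IR over Control gave 0.736 (0.716 to 0.756), IR+CBD over IR gave 1.14 (1.11 to 1.17), and IR+CBD remained at 0.839 (0.816 to 0.862) of Control. Cyp51, the lanosterol demethylase, had the same order, with 22.1, 16.1 and 17.8 CPM in Control, IR and IR+CBD. IR over Control was at 0.730 (0.697 to 0.764), IR+CBD over IR at 1.10 (1.05 to 1.16).

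Fdps, the synthase of farnesyl pyrophosphate from which both sterols and prenyl groups are made, stood at 81.8 CPM in Control, 64.7 CPM in IR and 62.7 CPM in IR+CBD. Both irradiated libraries were low. IR over Control gave 0.791 (0.773 to 0.810), and IR+CBD over IR gave 0.969 (0.944 to 0.994).

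The remaining 4 enzymes differed less between libraries. Idi1, the isopentenyl diphosphate isomerase, stood at 23.3, 22.1 and 22.1 CPM in Control, IR and IR+CBD, and IR over Control gave 0.946 (0.908 to 0.986). Fdft1, the squalene synthase and the step that commits the pathway to sterols, stood at 10.0, 9.0 and 8.99 CPM, and IR over Control gave 0.90 (0.844 to 0.959). Sqle, the squalene epoxidase and a rate-limiting step of the sterol branch, stood at 13.4, 14.1 and 14.0 CPM, and its intervals included 1 in all 3 comparisons. For Idi1, Fdft1 and Sqle the intervals of IR+CBD over IR also included 1, with bounds of 0.959 to 1.05, 0.933 to 1.07 and 0.944 to 1.05. Lss, which closes squalene epoxide into lanosterol, stood at 3.20 CPM in Control, 3.17 CPM in IR and 3.73 CPM in IR+CBD, with a ratio of 1.18 (1.05 to 1.32) for IR+CBD over IR.

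**Figure D1:**
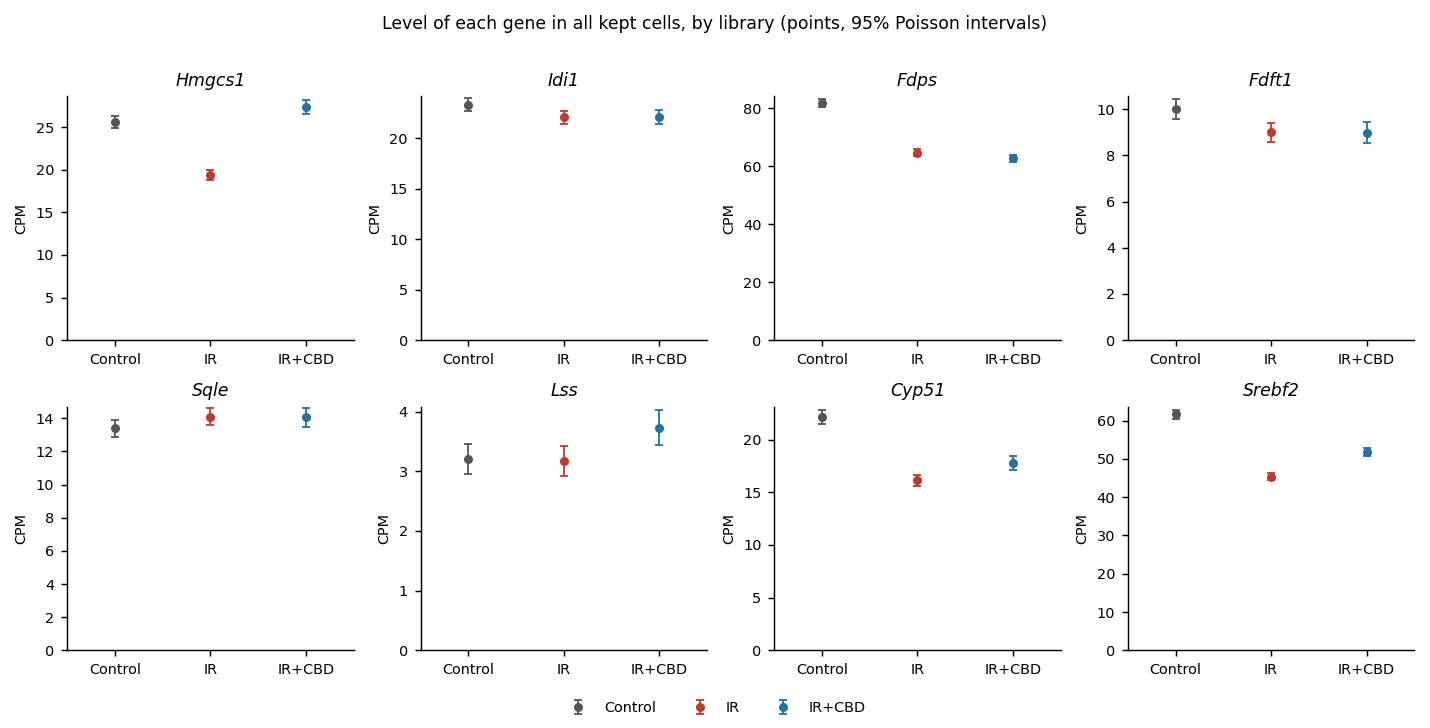
Level of each of the 8 genes in all kept cells, in CPM on an axis from 0, with 1 point per library (Control, IR, IR+CBD) and its 95% Poisson interval. Hmgcs1 stood at 25.6, 19.4 and 27.3 CPM, Srebf2 at 61.6, 45.3 and 51.7 CPM and Sqle at 13.4, 14.1 and 14.0 CPM.

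Because the mix of cells differed, the all-cell ratios were also computed with each gate and the ungated cells weighted by their Control shares of cells in every library. IR over Control then gave log2 ratios of -0.29 for Hmgcs1, -0.31 for Srebf2, -0.42 for Cyp51 and -0.25 for Fdps, against -0.40, -0.44, -0.46 and -0.34 as loaded. At this fixed mix the 4 genes were still lower in IR, but only Cyp51 passed the fold limit, so the count of 4 of 8 became 1 of 8. The fixed mix uses shares of cells, while the ratios as loaded weigh cells by their UMIs, so the 2 also differ in weighting. With each cell weighted equally and the mix as loaded, 4 of 8 passed the limit (Hmgcs1, Lss, Cyp51 and Srebf2). The share of all genes past the limit is not given for either setting, so these counts have no background beside them. With the fixed mix, Sqle moved from 0.07 to -0.05, Idi1 from -0.08 to -0.23 and Lss from -0.02 to -0.29. For IR+CBD over IR, Hmgcs1 was at 0.55 and Lss at 0.43 with the fixed mix, against 0.50 and 0.24 as loaded.

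Within the gates, Hmgcs1 was the only gene of the 8 with a ratio of IR+CBD to IR whose interval lay above 1 in every gate. It was lower in IR than in Control in 6 of 6 gates, with the interval below 1 in 5 of them, and higher in IR+CBD than in IR in 6 of 6, with the interval above 1 in all of these. In the Cd79a gate it stood at 20.5, 16.9 and 26.8 CPM in Control, IR and IR+CBD, in the Klf1 gate at 15.6, 13.6 and 19.7 CPM, and in the Mpo gate at 28.3, 23.7 and 30.4 CPM. IR was lowest and IR+CBD highest in each. In the Retnlg gate the levels were 21.6, 17.7 and 28.0 CPM, in the Cd34 Adgrl4 gate 29.7, 25.1 and 33.5 CPM, and in the Siglech gate 43.4, 29.2 and 63.2 CPM, the last from 138, 18 and 53 UMIs. The ratio of IR+CBD to IR ran from 1.28 (1.21 to 1.36) in the Mpo gate to 1.59 (1.42 to 1.78) in the Cd79a gate and 2.16 (1.246 to 3.92) in the Siglech gate. With each cell weighted equally the Siglech log2 ratio was 0.19 in place of 1.11. IR+CBD was also above Control in 6 of 6 gates, by 1.08-fold (1.02 to 1.13) in the Mpo gate and 1.31-fold (1.18 to 1.46) in the Cd79a gate. In the Cd34 Adgrl4 gate this last difference did not hold once cells of several gates were left out (log2 ratio 0.17 with them and -0.01 without them).

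The ratio of IR to Control for Srebf2 lay between 0.755 and 0.787 in 5 gates, with every interval below 1, and at 0.904 (0.668 to 1.20) in the Siglech gate. The Mpo and Cd34 Adgrl4 gates share cells, and without cells of several gates its log2 ratio went from -0.35 to -0.23 in the former and from -0.39 to -0.12 in the latter, short of the fold limit in both. In the Cd34 Adgrl4 gate the levels were 65.4 CPM in Control, 49.8 CPM in IR and 59.5 CPM in IR+CBD. In the Cd79a gate they were 64.3, 49.2 and 57.6 CPM, and in the Klf1 gate 52.0, 39.2 and 43.0 CPM. IR+CBD lay between IR and Control in these 3 gates. For IR+CBD over IR the ratio was 1.10 to 1.22 in 5 gates, with every interval above 1, and 0.970 (0.676 to 1.40) in the Siglech gate. IR+CBD was below Control in 6 of 6 gates, with the interval below 1 in 4.

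Cyp51 was lower in IR than in Control in 6 of 6 gates, with the interval below 1 in 4. It stood at 22.6, 18.3 and 19.4 CPM in the Mpo gate, at 24.6, 18.6 and 20.8 CPM in the Cd34 Adgrl4 gate and at 17.8, 11.6 and 15 CPM in the Retnlg gate. In the Klf1 gate its levels of 15.4, 14.9 and 15.7 CPM had intervals that overlapped, and the ratio of IR to Control was 0.969 (0.859 to 1.10). Idi1 was likewise at 0.997 (0.914 to 1.09) in the Klf1 gate, where it stood at 29.0, 28.9 and 28.3 CPM, and at 0.725 (0.597 to 0.879) in the Retnlg gate.

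Fdps differed between gates in direction. In the Mpo gate it stood at 114 CPM in Control, 99.9 CPM in IR and 92.4 CPM in IR+CBD, and in the Cd34 Adgrl4 gate at 92.6, 85.3 and 73.9 CPM. IR+CBD was thus lowest in both, with ratios to IR of 0.925 (0.897 to 0.953) and 0.867 (0.832 to 0.902). In the Retnlg gate it stood at 59.2, 34.2 and 39.9 CPM, and the ratio of IR+CBD to IR was 1.17 (1.04 to 1.32). In the Cd34 Adgrl4 gate the log2 ratio of IR+CBD to IR went from -0.21 to 0.07 when cells of several gates were left out, and these are most of its cells. In the Klf1 gate the levels were 45.6, 42.6 and 41.4 CPM, and the intervals of both IR over Control and IR+CBD over IR included 1.

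Sqle differed little between IR and Control. Its interval included 1 in 5 of 6 gates, and in the Klf1 gate it stood at 18.1, 20.3 and 20.2 CPM in Control, IR and IR+CBD, a ratio of 1.12 (1.01 to 1.254) for IR over Control. Fdft1 was lower in IR in the Mpo gate (8.34, 7.11 and 7.76 CPM; ratio 0.853, 0.771 to 0.943), while in the Cd79a gate it stood at 10.3, 10.4 and 10.9 CPM. Lss was lower in IR in the Mpo gate (3.04, 2.42 and 3.02 CPM; ratio 0.794, 0.668 to 0.942) and stood at 4.93, 5.76 and 6.30 CPM in the Klf1 gate. In the Cd34 Adgrl4 gate, from 318, 175 and 167 UMIs, IR over Control gave 0.778 (0.643 to 0.938) for Lss. It rested on fewer UMIs in the remaining gates, such as 16, 15 and 33 in the Retnlg gate.

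**Figure D2:**
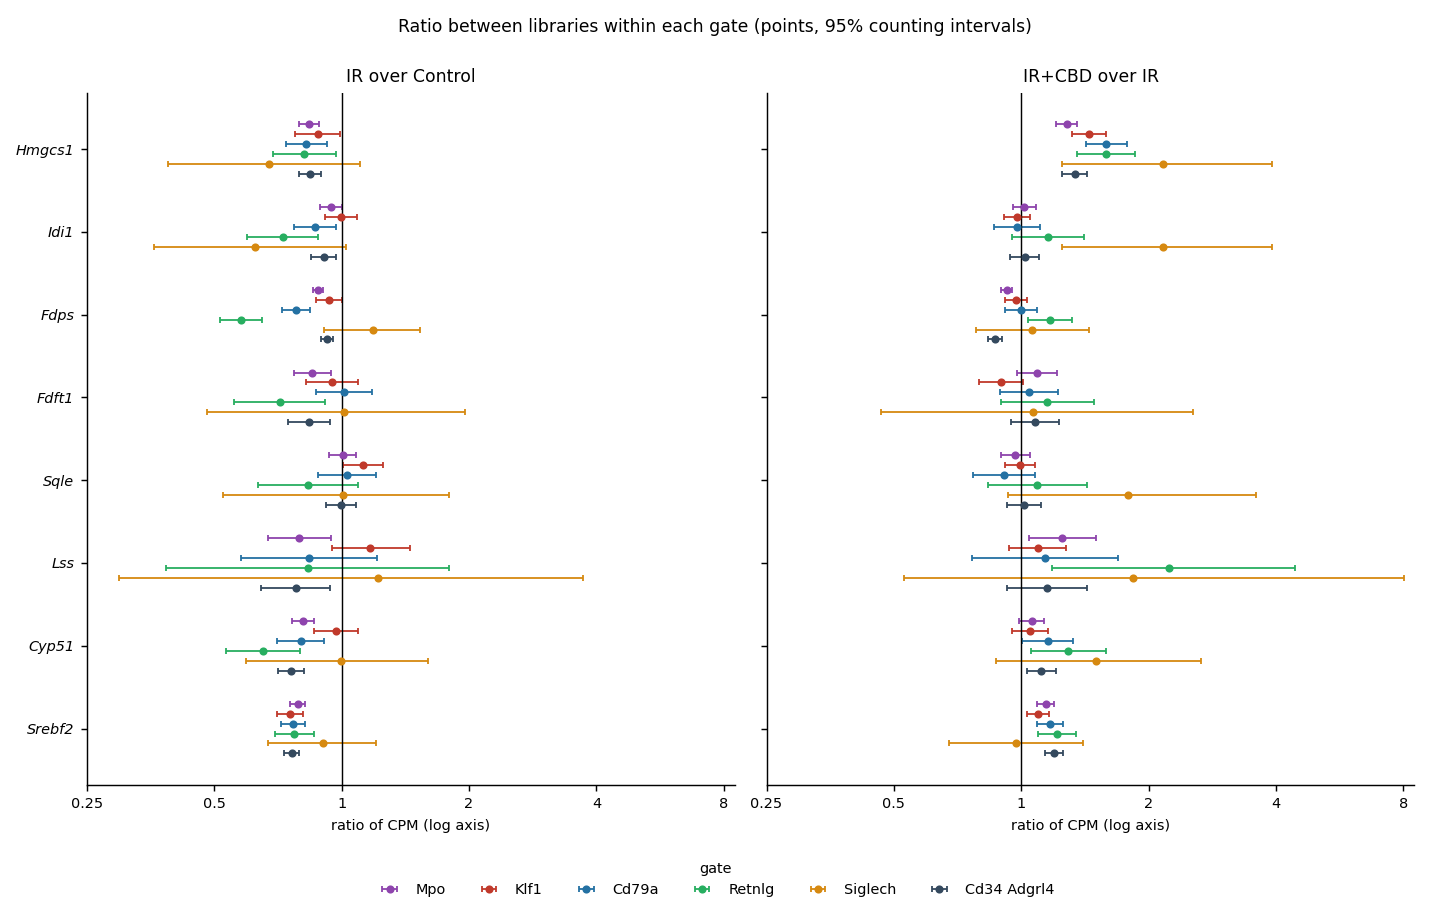
Ratio of CPM between libraries within each gate on a log axis, IR over Control on the left and IR+CBD over IR on the right, with 1 point per gate and gene and its 95% counting interval. Hmgcs1 lies left of 1 in 6 of 6 gates in the left panel and right of 1 in 6 of 6 in the right panel, Srebf2 lies between 0.755 and 0.787 in 5 gates on the left, and the wide intervals belong to the Siglech gate and to Lss.

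Taken gate by gate, the count of genes lower in IR past the fold limit was 2 of 8 in the Mpo gate (all genes tested there, 13.4%), 1 of 8 in the Klf1 gate (15.5%), 3 of 8 in the Cd79a gate (14.0%), 5 of 8 in the Retnlg gate (13.4%) and 3 of 8 in the Cd34 Adgrl4 gate (18.8%). In the Siglech gate, where Lss had too few UMIs to be counted, it was 2 of 7 (25.4%). Srebf2 was among them in 5 of the gates, but in only 2 (Klf1 and Cd79a) under every alternative setting tried. In the Mpo gate the count was 0 of 8 with median-ratio scaling, for which the share of all genes in that gate is not given. The count higher in IR+CBD than in IR past the limit was 1 of 8 in the Mpo (10.8%), Klf1 (4.41%), Cd79a (11.3%) and Cd34 Adgrl4 (11.5%) gates, and that gene was Hmgcs1 each time. Without cells of several gates Hmgcs1 was short of the limit in the Mpo and Cd34 Adgrl4 gates, and with each cell weighted equally in the Mpo gate. It was 3 of 8 in the Retnlg gate (Hmgcs1, Lss and Cyp51; 7.81%) and 4 of 7 in the Siglech gate (Hmgcs1, Idi1, Sqle and Cyp51; 27.9%). In the Siglech gate Cyp51 went from a log2 ratio of 0.59 to -0.25 without predicted doublets and to -0.20 with gates on UMIs per 10000, so its direction there depends on the setting. With each cell weighted equally Hmgcs1 was short of the limit in the Siglech gate (log2 ratio 0.19).

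The Retnlg gate had the lowest median of the gates for IR over Control and the Klf1 gate one near 0. In the Retnlg gate 8 of 8 genes were lower in IR than in Control, with a median log2 ratio of -0.42, beside 52.3% of all genes and a median of -0.01. For IR+CBD over IR 8 of 8 were higher, with a median of 0.25, where 57.8% of all genes were lower and the median was -0.04. The IR over Control intervals of Sqle (0.635 to 1.09) and Lss (0.383 to 1.80) included 1. For IR+CBD over IR, those of Idi1 (0.9495 to 1.41), Fdft1 (0.894 to 1.48) and Sqle (0.832 to 1.43) did. In the Klf1 gate the medians were -0.06 and 0.03. The neutrophil gate held RNA of other lineages, since its 6 myeloid progenitor markers summed to 4438, 3288 and 4243 CPM, its 8 erythroid markers to 460, 1947 and 1649 CPM and its 6 B lineage markers to 456, 421 and 338 CPM in Control, IR and IR+CBD, with 0 of the markers at 0. Their part in the result was not tested. Without the cells of several gates the median was -0.86 for IR over Control and 0.55 for IR+CBD over IR, and without predicted doublets -0.85 and 0.57. Under the first of these settings Fdps was at -1.0, Cyp51 at -0.98, Sqle at -0.91 and Srebf2 at -0.30 for IR over Control on the log2 scale.

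Within a library, the highest level was in the Siglech gate for 7 of the 8 genes in each library and for Fdps in the IR and IR+CBD libraries, the exception being Fdps in Control, at 114 CPM in the Mpo and 102 CPM in the Siglech gate. In IR, with 46 Siglech cells, only Cyp51 (ratio 1.83, 1.13 to 2.81) and Srebf2 (1.82, 1.38 to 2.38) differed beyond counting error from the next gate, and the other 6 genes did not. In Control the interval of the Siglech over the Klf1 gate included 1 for Sqle (0.96 to 1.61) and Lss (0.61 to 1.81). In IR+CBD the interval over the next gate included 1 for Fdft1 (0.987 to 2.89) and Lss (0.899 to 3.53). For these genes the top place of the Siglech gate was within counting error. Hmgcs1 had the same order in all 3 libraries, Siglech, Cd34 Adgrl4, Mpo, Retnlg, Cd79a and Klf1. In Control its Cd34 Adgrl4 and Mpo levels did not differ beyond counting error (ratio 1.05, 0.999 to 1.11), nor did its Retnlg and Cd79a levels (1.06, 0.917 to 1.22). Srebf2 also kept 1 order, Siglech, Cd34 Adgrl4, Cd79a, Retnlg, Mpo and Klf1. Idi1 and Sqle had the Klf1 gate next below the Siglech gate in all 3 libraries, at 29.0 CPM for Idi1 and 18.1 CPM for Sqle in Control, and Sqle was lowest in the Retnlg gate in each. For Fdps the Mpo and Cd79a gates stood apart in all 3 libraries, at 114, 99.9 and 92.4 CPM against 44.7, 34.9 and 34.8 CPM.

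**Figure D3:**
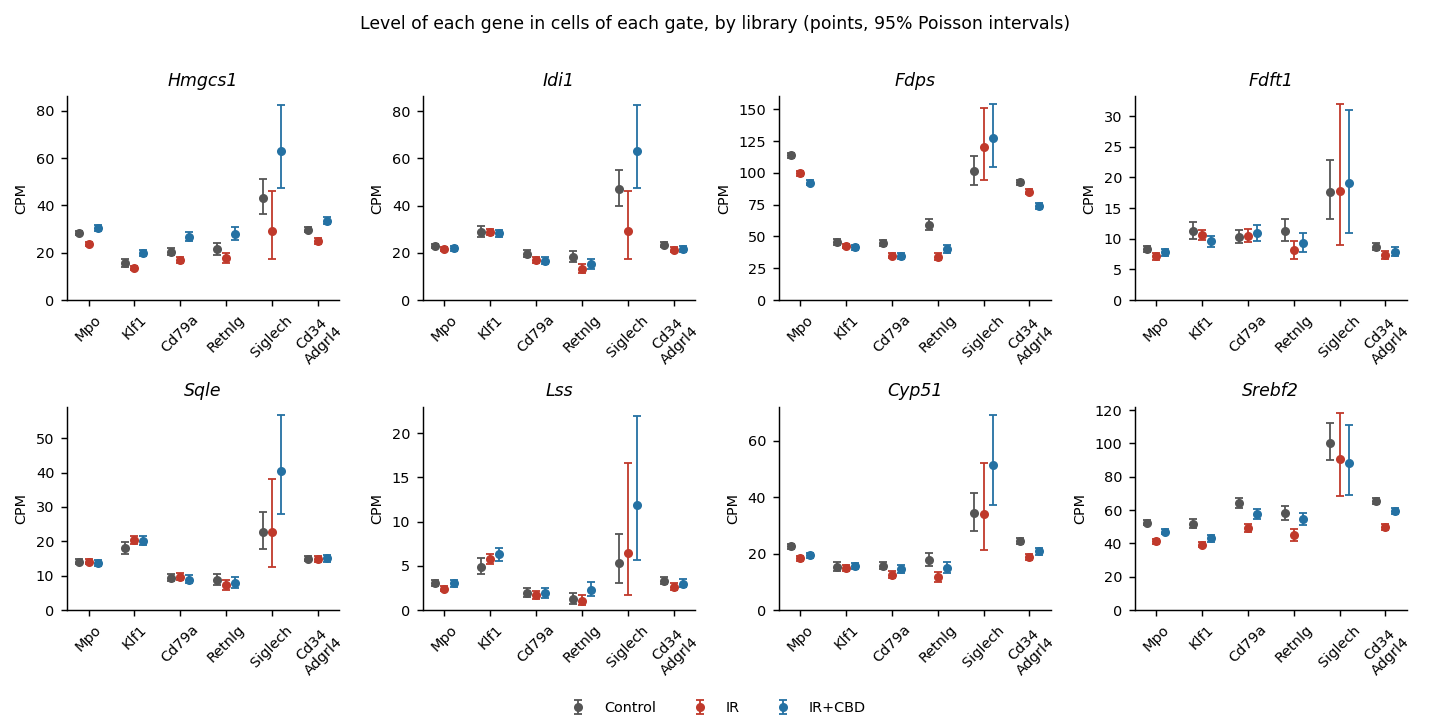
Level of each gene in the cells of each gate, in CPM on an axis from 0, with 1 point per library and its 95% Poisson interval. The Siglech gate holds the highest points for most genes, with wide intervals in IR (46 cells), and Fdps stands at 114, 99.9 and 92.4 CPM in the Mpo gate against 44.7, 34.9 and 34.8 CPM in the Cd79a gate.

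Gates differ in depth, with a median of 3416.5 to 4042 UMIs per cell in the Cd79a gate and 39670.5 to 42567 in the Klf1 gate, so shares of cells with a UMI were taken after each cell was thinned to 2000 UMIs. Of all cells, 4.58% in Control (4.18% to 5.00%), 3.40% in IR (3.06% to 3.78%) and 5.20% in IR+CBD (4.77% to 5.66%) held a Hmgcs1 UMI, against 28.7%, 25.5% and 29.9% without thinning. For Srebf2 the thinned shares were 12.4%, 9.15% and 10.3% (without thinning 52.8%, 44.7% and 45.9%), and for Cyp51 3.94%, 2.64% and 2.95% (26.6%, 22.2% and 21.8%). The order between libraries was that of the CPM for these 3 genes. It was not for Fdps (9.36%, 8.01% and 8.71%), Fdft1 (2.33%, 1.62% and 1.965%), Sqle (2.12%, 1.89% and 1.85%) and Lss (0.720%, 0.468% and 0.560%). No order is read from the shares of Fdps, Fdft1, Sqle and Lss. Shallower cells left out numbered 401, 296 and 452. No gate is known to lack these genes, so the share that free RNA alone would give is not known, and the lowest thinned shares outside the Siglech gate, those of Lss in the Retnlg gate, were 0.0936% to 0.167%.

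Dividing cells were set against other cells within each library by whether a cell held a UMI of Mki67, a gene of proliferating cells. In the Cd79a gate Fdps was higher in cells with an Mki67 UMI, at 53.3 against 21.5 CPM in Control, 42.2 against 19.0 CPM in IR and 43.2 against 18.9 CPM in IR+CBD. The ratios were 2.48 (2.12 to 2.91), 2.22 (1.92 to 2.59) and 2.29 (1.93 to 2.72), where the median over all genes was 0.956, 0.945 and 0.988. Sqle (2.49, 3.05 and 2.80) and Idi1 (2.03, 2.40 and 2.27) had like ratios there. Hmgcs1 was at 1.57 (1.29 to 1.92) in Control, 1.27 (1.06 to 1.53) in IR and 1.00 (0.855 to 1.18) in IR+CBD. Srebf2 was at 0.893, 0.946 and 0.828, so in this gate the regulator's RNA was not higher in the cells with an Mki67 UMI. In the Mpo gate Fdps was at 1.10, 0.897 and 0.899, and Sqle at 0.999, 1.09 and 1.07. Srebf2 was at 1.049 (0.961 to 1.146), 1.114 (1.022 to 1.215) and 1.213 (1.115 to 1.322) there. The median over all genes in that gate was 1.025, 1.062 and 1.069. In the Retnlg gate Fdps was at 2.26, 2.29 and 2.12, where the median over all genes was itself 1.81, 1.87 and 1.80. Cells with an Mki67 UMI were deeper (a median of 11466 against 3139 UMIs in the Control Cd79a gate), so the split also sorts cells by depth, and the part of depth in these ratios was not tested.

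**Figure D4:**
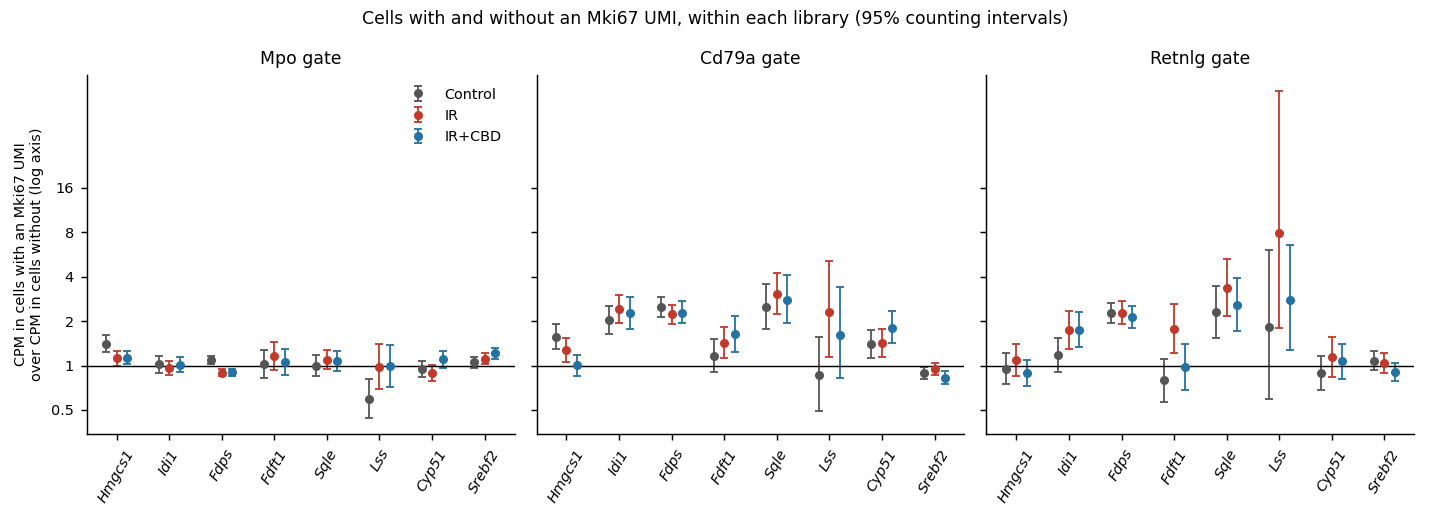
CPM in cells with an Mki67 UMI over CPM in cells without, on a log axis, for the 8 genes in the Mpo, Cd79a and Retnlg gates, with 1 point per library and its 95% counting interval. In the Cd79a gate Fdps, Sqle and Idi1 lie between 2.03 and 3.05 and Srebf2 between 0.828 and 0.946.

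The differences between libraries were then read on either side of that split in all cells. Srebf2 was lower in IR than in Control in cells with an Mki67 UMI (ratio 0.754, 0.731 to 0.778) and in cells without (0.678, 0.640 to 0.718), and Cyp51 likewise (0.749, 0.712 to 0.789, and 0.657, 0.593 to 0.728). Hmgcs1 was higher in IR+CBD than in IR on both sides, at 1.39 (1.33 to 1.46) and 1.49 (1.36 to 1.64). Fdps was lower in IR in cells with an Mki67 UMI (0.749, 0.731 to 0.769) and at 1.07 (1.00 to 1.13) in cells without. Idi1 was at 0.996 (0.951 to 1.04) with and 0.738 (0.666 to 0.817) without, and Fdft1 at 0.974 (0.906 to 1.05) and 0.654 (0.564 to 0.758). In cells with an Mki67 UMI, Lss stood at 3.057 CPM in Control and 3.476 CPM in IR, and Sqle at 14.17 and 15.51 CPM. In cells without, Lss stood at 3.764 and 1.995 CPM and Sqle at 10.34 and 8.694 CPM. Of the cells with an Mki67 UMI, 543 of 5549 in Control and 1370 of 5319 in IR were in the Klf1 gate. The part of the cell mix in these ratios and levels was not tested. The summed level of 17 proliferation genes was 4727, 4835 and 4763 CPM in Control, IR and IR+CBD. Between IR and Control 0 of them passed the fold limit, beside 21.5% of all genes lower and 11.3% higher past it.

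Among 13 other enzymes of sterol synthesis, 3 were lower in IR than in Control past the fold limit, a share near the 21.5% of all genes, and 0 were higher past it, with a median log2 ratio of -0.12. They were Msmo1, a sterol demethylase that acts after Cyp51 (18.5, 14.3 and 16.7 CPM in Control, IR and IR+CBD), Hsd17b7 (5.6, 4.33 and 4.80 CPM) and Mvd, the mevalonate diphosphate decarboxylase (7.55, 5.96 and 6.35 CPM). IR was lowest in each. For Msmo1, IR over Control gave 0.775 (0.738 to 0.814), and IR+CBD over IR gave 1.16 (1.10 to 1.23). None of the 13 passed the limit between IR+CBD and IR, where 9.93% of all genes were higher and 8.72% lower past it. Their median log2 ratio was 0.09 in that comparison. Values of this list and of the lists below are for all cells as loaded. They were not taken at the fixed mix of cells, and the part of the cell mix in them was not tested.

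Among 8 genes that control SREBP processing, only Insig1, an anchor protein that is itself a target of SREBP, was past the fold limit. Of all genes, 21.5% were lower and 11.3% higher past it between IR and Control, so this count does not set the list apart. It stood at 20.9, 14.5 and 17.0 CPM in Control, IR and IR+CBD, with a ratio of 0.697 (0.665 to 0.731) for IR over Control. Srebf1, Scap, Mbtps1 and Mbtps2, which encode the sister factor, the escort protein and the proteases, lay at 0.99, 0.963, 0.962 and 0.961. The list's median log2 ratio was -0.06, beside -0.05 over all genes.

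Among 10 genes of uptake and transport, 4 were lower in IR than in Control past the fold limit and 0 higher, beside 21.5% and 11.3% of all genes, with a median log2 ratio of -0.15. Npc1, which carries cholesterol out of lysosomes, stood at 15.2, 9.10 and 11.4 CPM in Control, IR and IR+CBD. IR was lowest. Its ratio was 0.599 (0.564 to 0.635) for IR over Control, and it was the only gene of the 10 past the limit between IR+CBD and IR, at 1.26 (1.18 to 1.34). Of all genes, 9.93% were higher and 8.72% lower past the limit in that comparison. The lipoprotein receptors Lrp8, Lrp1 and Vldlr were at 0.793 (0.756 to 0.831), 0.585 (0.534 to 0.640) and 0.213 (0.186 to 0.243) for IR over Control. The part of the differing cell mix in these ratios was not tested.

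Genes of efflux and storage went in both directions. Of 9 measured, 4 were lower in IR than in Control past the fold limit (the exporter Abcg1 at 0.724, the esterifying enzyme Soat1 at 0.749, the sterol hydroxylase Cyp27a1 at 0.744 and the sterol sensor Nr1h3 at 0.682), and 2 were higher, Abcg4 at 2.84 and Soat2 at 1.69, beside 21.5% and 11.3% of all genes. Ch25h had too few UMIs to be counted. Of 9 genes of fatty acid synthesis and desaturation, Scd2 was lower at 0.632 (0.613 to 0.652) and Acss2 higher by 0.32 on the log2 scale, with a median log2 ratio of -0.15. In the same libraries 8 of 8 interferon-induced genes were higher in IR, with a summed level of 52.7, 222 and 67.2 CPM in Control, IR and IR+CBD. Their part in the levels of the sterol genes was not tested.

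**Figure D5:**
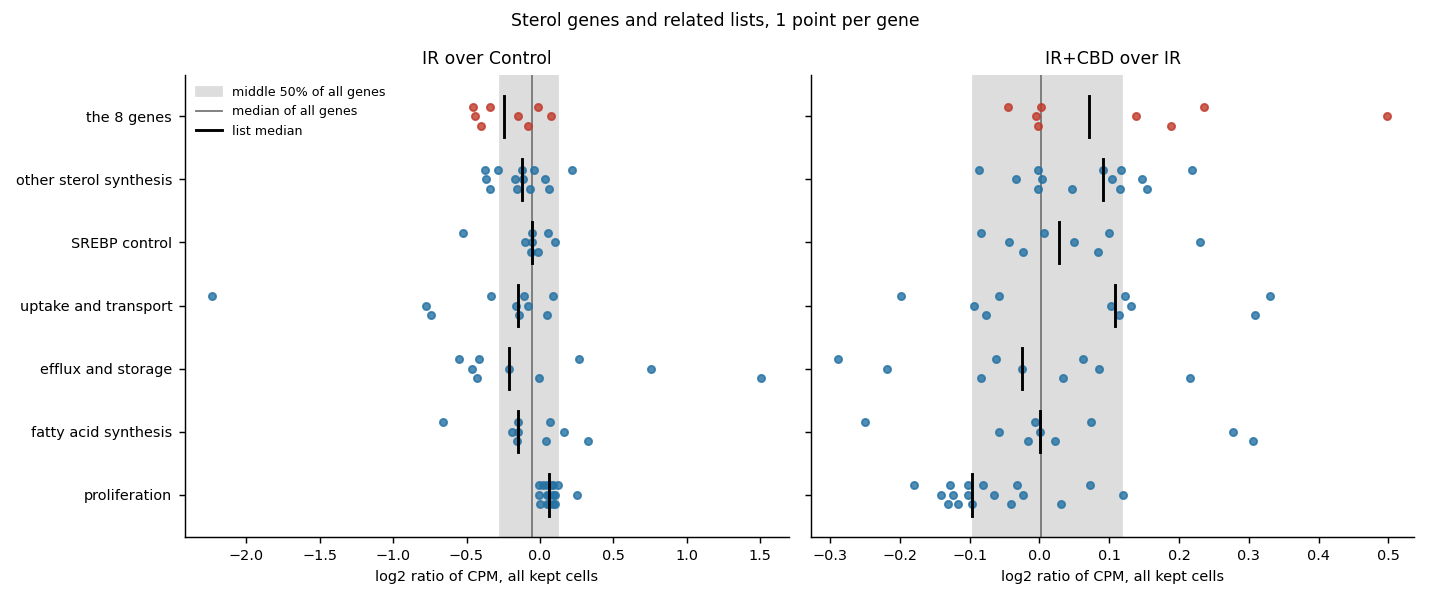
Log2 ratio of CPM in all kept cells for the genes of each list that passed the minimum of UMIs, IR over Control on the left and IR+CBD over IR on the right, with 1 point per gene, black bars at list medians and grey bands over the middle 50% of all genes. The 8 genes have medians of -0.25 and 0.07, uptake and transport -0.15 and 0.11, and proliferation 0.06 and -0.10, and the 2 panels have different axis ranges.

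Over the 18 sums of 6 gates in 3 libraries, Cyp51 and Idi1 followed the mean of the other 7 genes most closely (Pearson r of 0.957 and 0.901 on log2(CPM + 1)), and Fdft1 and Fdps least (0.649 and 0.676). The closest pair was Sqle with Lss (0.959), followed by Idi1 with Sqle (0.949). Of 15862 genes ranked by likeness to the mean of the 8, the nearest 10 were Tyk2 (0.949), Gatad1, Tex2, Cdc42bpb, Wdr13, Macf1, 2900005J15Rik, Cd47, Zfp385a and Orai3 (0.927). Among listed genes, Lrp8 (0.918), Mvk (0.885) and Cyp27a1 (0.878) were also near. The sums share libraries and cells, and the Siglech gate, where most of the 8 genes were highest, weighs in each r, so these values are descriptions.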

How the data were processed

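For each of the 3 libraries the authors deposited raw UMI counts per gene and cell, with no normalization. Their processing notes name Cell Ranger 4.0 and build GRCm39, while the deposited headers name Cell Ranger 7.0.1, which by default also counts intronic reads. Reads of partly spliced RNA can therefore enter the counts. Positions came from GENCODE M21 (GRCm38) by gene identifier and promoters from RefSeq (GRCm38.p6), since sequence of the build named for the counts was not used here.

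Cells with 200 or more genes and at most 5% mitochondrial UMIs were kept, as in the study's methods. The study also filtered out potential doublets with DoubletFinder. No doublet filter was used here, and removal of predicted doublets was tried only as an alternative. UMIs were summed per gene, library and gate and divided by the total. Depth was 177806843 to 206932522 UMIs per library. Intervals at 95% are exact Poisson (levels), exact conditional binomial (ratios) and Clopper-Pearson (shares), and cover counting error only. The ratio intervals were tried on simulated counts with counting error alone. That trial says nothing of variation between cells, mice or libraries. A gene was counted as lower or higher at 1.25-fold or more, among genes with a mean of 20 or more UMIs per library and at least 1 in each. Named genes are the 8 genes, listed genes past this limit in all cells, the 10 genes most alike and the gate genes. Other genes, such as those of SREBP processing, were named after their values were seen. A few listed genes are not reported here and were left out of their lists' counts and medians. The 8 genes, gates and lists were chosen with earlier results of these data known. Alternatives covered mitochondrial and gene limits, doublets, scaling, cell weighting, gate overlap, gates on relative UMIs, cell mix and the UMI minimum. Software was Python 3.11.15, numpy 2.4.6, scipy 1.17.1, pandas 2.3.3, scanpy 1.11.5 (Scrublet) and matplotlib 3.10.9.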

Additional observations from a re-analysis of the deposited data

Results flagged for a closer look

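Fdps was set apart because its ratio of IR+CBD to IR had opposite directions in different gates: 0.925 in the Mpo gate and 0.867 in the Cd34 Adgrl4 gate, against 1.17 in the Retnlg gate, with intervals on either side of 1. The difference between gates was not tested, since each group is 1 library, and the Mpo and Cd34 Adgrl4 gates share most of the cells of the latter.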

How the results depend on the processing

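No paired analysis was possible because each group is 1 library. Over all cells the median log2 ratio of the 8 genes kept its direction in 6 of 6 alternatives in each comparison. With median-ratio scaling it was -0.19 for IR over Control and -0.067 for IR+CBD over Control, and -0.20 for IR over Control in the Cd34 Adgrl4 gate. With each cell weighted equally it was -0.31, 0.17 and -0.21 for IR over Control, IR+CBD over IR and IR+CBD over Control in all cells, -0.74, 0.43 and -0.33 in the Retnlg gate, 0.25 for IR+CBD over IR in the Siglech gate, -0.31 for IR over Control in the Cd34 Adgrl4 gate, and -0.15, -0.24 and -0.23 for IR+CBD over Control in the Mpo, Cd79a and Cd34 Adgrl4 gates. With the Control mix of gates IR+CBD over IR was 0.14. In the Retnlg gate IR over Control was -0.85 without predicted doublets and -0.86 without cells of several gates, and IR+CBD over IR 0.57 and 0.55. Without cells of several gates IR+CBD over IR was 0.037 in the Mpo gate and IR+CBD over Control -0.053 in the Cd34 Adgrl4 gate. With gates on UMIs per 10000 the Klf1 gate gave 0.041 for IR over Control and 0.085 for IR+CBD over Control, against -0.061 and -0.005, and the Siglech gate 0.30 for IR+CBD over IR, against 0.71 over all 8 genes. The Siglech median for IR over Control, near 0, kept its sign in 4 of 7 alternatives. The causes were not tested.

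Of 1152 log2 ratios of single genes under the alternatives, 88 had the other sign, 82 of them where the interval of the reported ratio included 1. The other 6 were these. With each cell weighted equally, Fdps was at 0.047 for IR+CBD over IR and Lss at -0.061 for IR+CBD over Control in all cells, and Fdps at 0.11 for IR over Control in the Cd34 Adgrl4 gate. Without cells of several gates, Fdps was at 0.068 for IR+CBD over IR and Hmgcs1 at -0.010 for IR+CBD over Control in the Cd34 Adgrl4 gate. With gates on UMIs per 10000, Fdft1 was at 0.0049 for IR+CBD over Control in the Klf1 gate.

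The count of the 8 genes lower in IR past the fold limit was 4 with a minimum of 50 UMIs or none, 3 with median-ratio scaling and 1 with the Control mix of gates (Cyp51). The genes tested numbered 17792, 29664 and 20760 with a minimum of 50 UMIs, none and median-ratio scaling. Over these genes the count was 3384 (19%), 7980 (26.9%) and 3805 (18.3%). No share over all genes is given for the Control mix of gates. In the same order, higher in IR were 1697 (9.54%), 5250 (17.7%) and 2802 (13.5%). Lower in IR+CBD than in IR were 1076 (6.05%), 5026 (16.9%) and 1838 (8.85%), and higher 1254 (7.05%), 5014 (16.9%) and 2023 (9.74%). Lower in IR+CBD than in Control were 2828 (15.9%), 7408 (25%) and 3299 (15.9%), and higher 1446 (8.13%), 4765 (16.1%) and 2487 (12%). Depth limits the Siglech gate, with 46 IR cells, and Lss.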
